A study of Mus musculus with 4 samples.

Results

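MacroH2A ChIP-seq islands narrower than 5000 bp that were found at the same place before and after muscle differentiation are described here as pairs. A pair is a myoblast island (day 0 of differentiation medium) that overlapped exactly 1 myotube island (day 5), where both were under 5000 bp wide and the myotube island overlapped no other myoblast island. The rule was applied to chromosomes 1 to 19 without chromosome 15, which leaves 18 chromosomes. It found 1076 pairs. They came from 7982 narrow islands among 27317 islands at day 0, and from 7006 narrow islands among 27089 islands at day 5. The complete lists hold 30016 and 29473 islands. Overlap and width chose the pairs, so neither is a finding.

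MacroH2A replaces ordinary H2A in some nucleosomes and has a long tail ending in a globular macrodomain, which sits outside the nucleosome core. It is best known from the inactive X chromosome and from broad stretches of weakly transcribed chromatin, and a splice form of it binds ADP-ribose through the macrodomain. The variant is usually described as lying in wide domains, so narrow islands stand at the other end of its size range. C2C12 is an established mouse line of muscle precursors. Its myoblasts proliferate in rich serum, and in low horse serum at high confluence they stop dividing and merge into myotubes with many nuclei.

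Of the 4 samples in the series, 2 were immunoprecipitated for macroH2A and the other two are inputs. The cells of all of them are C2C12 and no genetic change is given in the labels. The myoblast library is from day 0 and the myotube library from day 5 of differentiation medium, with the same macroH2A antibody, and the labels do not say which forms of macroH2A it recognises. Each group is 1 library, so no test of differentiation was possible and all differences are between these 2 libraries. The input libraries were not analysed here. A read density therefore does not separate macroH2A from the amount or mappability of DNA. Summed over all chromosomes, 24365482 myoblast reads and 29619426 myotube reads fell in islands, which is not the sequencing depth. Every interval below is a 95% interval unless stated otherwise. Those of shares, densities and single ratios cover counting error alone, those of medians cover the spread over islands, and none covers variation between cultures. Reads without molecular identifiers are not independent molecules.

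The pairs were a small part of the macroH2A maps. Together they covered 3.70 Mb at day 0 and 3.74 Mb at day 5, which was 1.33% and 1.26% of the island length on the 18 chromosomes. They held 1.41% of the island reads at day 0 and 1.33% at day 5. The median island of a pair was 3.6 kb wide at both days. It held 276 reads at day 0 (range 80 to 587) and 317 reads at day 5 (range 89 to 728). The relative counting error at those medians was 6.02% and 5.62%.

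Most narrow islands of either day were not kept as a narrow pair. At day 0, 13.5% of narrow islands (12.7 to 14.2%, exact binomial interval) were kept, and 39.6% overlapped no myotube island. A further 20.2% lay under a single wider myotube island that overlapped nothing else. Another 25.8% were among several myoblast islands that overlapped 1 wider myotube island. Overlap with 2 or more islands was rare, at 42 of 7982. Seen from day 5, 15.4% of narrow islands (14.5 to 16.2%) were kept and 47.1% overlapped no myoblast island. Those in a pair with a wider myoblast island made up 16.1%, and 20.7% were among several under 1 wider myoblast island. The kept share thus differed little between the lists, while narrow islands at day 0 overlapped a wider island of the other day more often than narrow islands at day 5 did. Neither difference was tested, and myotube islands were wider in general.

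The kept share was somewhat higher among the narrower islands. Of the 4.8 kb islands, the widest that the limit admits on the 600 bp grid, 11.8% were kept at day 0 and 13.0% at day 5. Of the 1.2 kb islands, 20.1% were kept at day 0 (47 of 234, 15.1 to 25.8%) and 18.0% at day 5 (44 of 244, 13.4 to 23.4%). Islands of a single window of 600 bp were few, and 7 of 52 at day 0 and 11 of 34 at day 5 were kept. Their intervals, 5.59 to 25.8% and 17.4 to 50.5%, overlap each other and those of most other widths. An island of 4.8 kb leaves the set when it gains a single window at the other day, so the order by width follows in part from the rule.

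**Figure D1:**
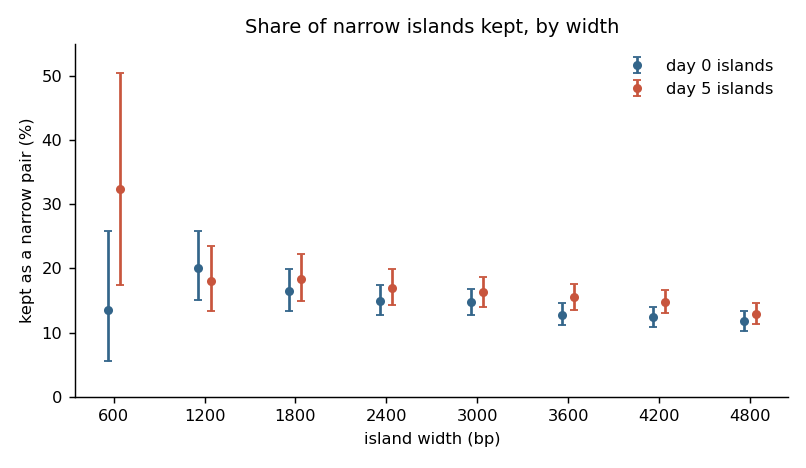
Percent of narrow islands kept as a pair (y axis) against island width in bp (x axis), for the day 0 list and the day 5 list, with exact 95% binomial intervals as bars. Shares lie between 11.8% and 20.1% for all day 0 widths, and the single-window islands have the widest intervals.

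The first measurement was border agreement. Islands begin and end on a 600 bp grid, so a border shift is a whole number of windows, given here as day 5 minus day 0. Both borders were the same in 181 of 1076 pairs (16.8%, 14.6 to 19.2%). Exactly 1 border was the same in 432 pairs (40.1%), and neither in 463 (43.0%). The start was the same in 35.6% of pairs and the end in 38.2%. Both borders lay within 1 window of each other in 51.4% (48.4 to 54.4%) and within 2 windows in 70.7%. The rule bounds a shift at 7 windows, and 79 pairs (7.34%) had a border that moved by 5 or more. The mean absolute shift was 1.33 windows at the start and 1.28 windows at the end, and the median was 1 at each. A shift of 0 was therefore the most frequent single value at each border, without being the majority.

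**Figure D2:**
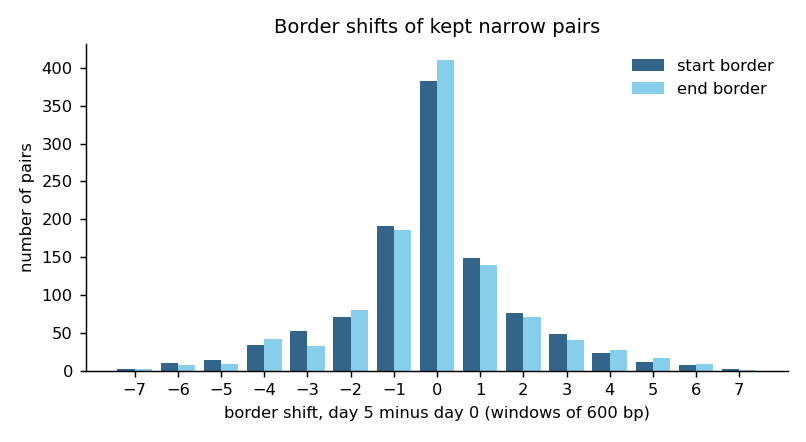
Number of kept narrow pairs (y axis) by border shift in windows of 600 bp, day 5 minus day 0 (x axis), with the start border in dark and the end border in light bars. The start was unmoved in 383 pairs and the end in 411, and counts drop on both sides to at most 3 pairs at 7 windows.

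The pairs widened about as often as they narrowed. The myotube island was wider in 394 pairs, narrower in 381 and of the same width in 301, of which 120 had moved borders. The mean width change was 0.0576 windows, far below 1 window. The myoblast island lay inside the myotube island in 282 pairs, and the reverse held in 288. The other 325 pairs were staggered, each island reaching past the other on one side. Among pairs in which both islands were 5000 bp or wider, 1960 of 6023 myoblast islands lay inside the myotube island and 1500 held it, a mean change of 0.951 windows. In narrow pairs the width limit at both days removes islands that grew past it, so this contrast follows in part from the rule.

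The overlap itself was partial in most pairs. The median pair shared 2.4 kb (2400 bp), and its Jaccard index, the shared length over the joint length, was 0.667 with quartiles of 0.50 and 0.857. Shared sequence made up 77.7% of the paired length at day 0 and 76.9% at day 5. In 187 pairs (17.4%) at least 1 of the islands had less than 50% of its length shared, and 41 pairs shared a single window. The wider pairs had the same median Jaccard index, 0.667, with a median absolute shift of 3 windows at each border. In windows the narrow pairs agreed more closely than the wider ones, whereas as a share of their length they did not. The bound of 7 windows holds for narrow pairs only, so the closer agreement in windows follows in part from the rule. Among the 4012 wider pairs with both shifts within that bound, 26.1% had both borders within 1 window and 7.30% had both the same. In narrow pairs these shares were 51.4% and 16.8%.

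Identical borders became less frequent with the width of the wider island of a pair, with no step at the limit of 5000 bp. Pairs are grouped here by the width of their wider island. Just inside the limit, at 4.8 kb (4800 bp), 29 of 357 pairs had both borders the same (8.12%, 5.51 to 11.5%). Just outside it, at 5.4 kb (5400 bp), 26 of 449 did (5.79%, 3.82 to 8.37%). Their densities were also close. The medians were 74.4 reads per kb at day 0 on both sides, and 83.9 inside against 81.4 outside at day 5. The share with both borders within 1 window differed more across the limit. It was 38.7% at 4800 bp, 24.1% at 5400 bp and 24.2% at 6000 bp. At 3.6 kb (3600 bp), 41 of 189 pairs had identical borders (21.7%), and at 1.2 kb (1200 bp) 13 of 14 did. Small pairs have fewer grid positions for their borders, and for a pair whose wider island is a single window identical borders are the only possibility. Among wider pairs, 293 of 6023 (4.86%) had both borders the same. When narrow pairs were grouped by their day 0 width instead, the share did not fall steadily. It was 27.7% at 1200 bp, 11.5% at 1800 bp, 21.4% at 3600 bp and 13.6% at 4800 bp.

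**Figure D3:**
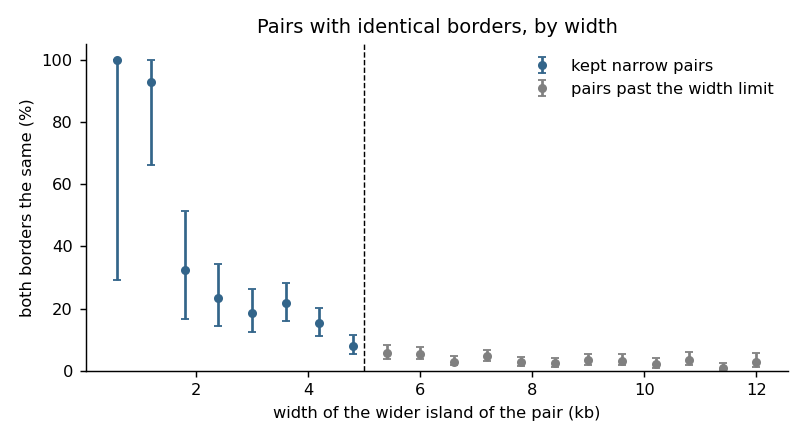
Percent of pairs with both borders the same (y axis) against the width in kb of the wider island of the pair (x axis), with exact 95% binomial intervals as bars and the 5000 bp limit as a dashed line. The share is 21.7% at 3.6 kb, 8.12% at 4.8 kb and 5.79% at 5.4 kb.

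The second measurement was read density, in reads per kb of each day's own island. In the myoblast library the pairs ran from 61.1 to 313 reads per kb, with a median of 79.7. In the myotube library they ran from 67.1 to 298, with a median of 89.9. The myotube island was denser in 825 of 1076 pairs (76.7%). The median ratio of day 5 over day 0 was 1.13 (1.12 to 1.14, order-statistic interval of the median). Over all 9838 one-to-one pairs of any width on these chromosomes it was 1.12, and over the wider pairs 1.12 as well. The pairs thus shared the offset between the libraries that islands of all widths showed, and ratios below are given relative to the 1.12 of all one-to-one pairs. By counting error alone, the interval of the unscaled ratio lay wholly above 1 in 411 narrow pairs (38.2%, against 48.1% of all one-to-one pairs) and wholly below 1 in 49 (4.55%, against 4.80%). Set against the 1.12 of all one-to-one pairs, the interval lay wholly to one side in 315 narrow pairs (29.3%, against 39.7% of all one-to-one pairs). That split was nearly even, with 166 narrow pairs above and 149 below, as it was among all one-to-one pairs (2039 and 1866). Narrow islands hold fewer reads and so have wider intervals.

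The islands of narrow pairs were denser than those of wider pairs. The lowest density on the list fell with width from 600 to 4200 bp and was about the same at 4200 and 4800 bp. At day 0 it was 133 reads per kb for a width of 600 bp (80 reads), 55.7 for 4200 bp and 55.8 for 4800 bp (268 reads). At day 5 it was 148 reads per kb for 600 bp (89 reads), 61.2 for 4200 bp and 61.7 for 4800 bp (296 reads). The wider pairs had medians of 71.5 reads per kb at day 0 and 80.0 at day 5. Kept and unmatched islands are therefore compared at equal width.

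At equal width, kept islands were slightly denser than narrow islands that overlapped nothing at the other day. This held for the medians of all 8 widths at day 0, by 1.03 to 1.11 times with a mean of 1.05. At day 5 it also held for all 8 widths, by 1.02 to 1.1 times with a mean of 1.05. For 4800 bp islands at day 0 the medians were 73.1 reads per kb in 214 kept islands and 69.2 in 709 unmatched ones. For 3000 bp islands at day 5 they were 90.0 in 167 kept and 86.7 in 502 unmatched islands. The highest ratios, 1.11 at day 0 and 1.1 at day 5, were those of the 600 bp islands, with only 7 and 11 kept islands. The width of kept and unmatched islands had the same median, 3600 bp. Kept islands were chosen as those also called at the other day, where a density floor applies. The contrast in density may therefore follow in part from the rule, and that part was not tested.

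Density at one day went with density at the other, with higher correlations where the borders or the width were the same. Across the 181 pairs with identical borders, Pearson's r of the log2 densities was 0.76 and Spearman's rho was 0.67. Across the 895 pairs with moved borders r was 0.29 and rho 0.27. Across the 301 pairs of the same width, of which 120 had moved borders, r was 0.74 and rho 0.65. As these 301 include all 181 pairs with identical borders, the similar values cannot tell equal width from identical borders. No correlation was computed for the 120 alone. These are descriptions over pairs that share their libraries. Islands of a pair with the same width at both days also share the density floor that goes with width. The spread of the log2 ratio was also smaller with identical borders, with an SD of 0.21 against 0.28 for moved borders. In the pairs of the same width it was 0.20. Counting error alone would give an SD of 0.12 in each set. Most of the spread was thus beyond counting error, and without replicates it cannot be divided into technical and biological parts.

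**Figure D4:**
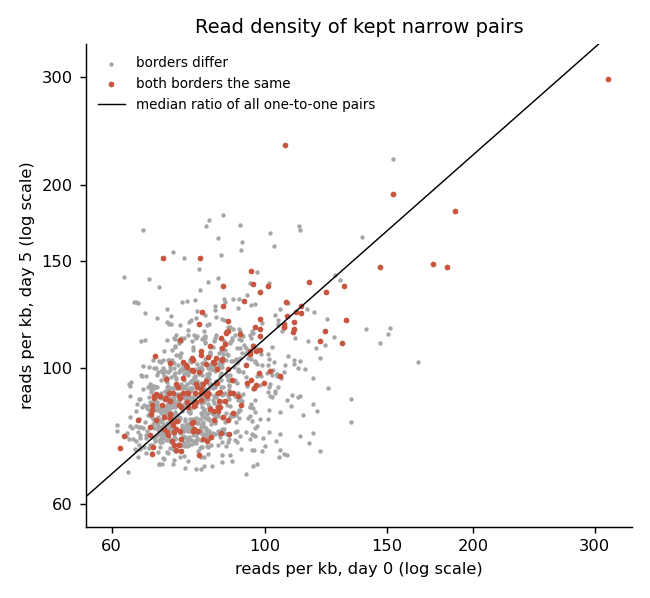
Reads per kb of each kept narrow pair at day 0 (x axis, log scale) and day 5 (y axis, log scale), with the 181 pairs with identical borders in red, the 895 others in grey, and the median ratio of all one-to-one pairs as a line. Red points lie closer to the line, and the densest pair sits at 313 and 298 reads per kb.

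Where borders moved, the ratio followed the change in width. In the 394 pairs that were wider at day 5 the median unscaled ratio was 1.03 (1.01 to 1.05), and in the 381 that were narrower it was 1.22 (1.20 to 1.25). Pairs of the same width lay between, at 1.11. Within each list the median density of kept islands fell with width. It went from 152 reads per kb at 600 bp to 73.1 at 4800 bp at day 0, and from 168 to 81.1 at day 5. The order of these ratios therefore cannot be told apart from that fall with width. The islands of pairs with moved borders are not the same stretch of sequence, so only pairs with identical borders compare the same bases at both days.

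A relative log2 ratio past 0.3 (1.23-fold either way) was reached by 228 of 1076 pairs, or 21.2% (18.8 to 23.8%). Among all 9838 one-to-one pairs, which include the narrow ones, it was reached by 1491 (15.2%). Of these 1491, 228 were narrow pairs and 610 were wider pairs. The rest were among the 2739 pairs of 1 narrow and 1 wider island, a share no lower than that of the narrow pairs. A share above that of all pairs was thus not particular to kept narrow pairs. In the direction of higher density at day 5 there were 126 narrow pairs (11.7%) against 8.00% of all pairs. In the direction of lower density there were 102 (9.48%) against 7.16%. With identical borders the share was 19 of 181 (10.5%, 6.44 to 15.9%), of which 13 were denser at day 5 and 6 less dense. Among wider pairs it was 10.1%. Narrow pairs with fixed borders thus passed the fold about as often as wider pairs of any border agreement. Narrow pairs with moved borders did so in 23.4%, and where their width changed, the fall of density with width enters the ratio. These sets are unlike, as only 293 of the 6023 wider pairs had both borders the same. The median reads at day 0 and day 5 were 289 and 329 in the narrow pairs with fixed borders, against 667 and 795 in wider pairs. The share among wider pairs with fixed borders was not computed. With no scaling 31.7% of the narrow pairs passed the fold, and with scaling by all island reads 26.0%.

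Among pairs with identical borders, the 5 with the highest mean density were all called on at most 5 windows. All positions are in mm9. The densest, at chr9:123781801-123782400, is 1 window of 600 bp. It held 188 reads at day 0 (313 reads per kb, 270 to 361, exact Poisson interval) and 179 at day 5 (298, 256 to 345). The second was a 1.2 kb island at chr19:58398001-58399200, with 226 and 217 reads (188 and 181 reads per kb). A single window at chr19:21993601-21994200 followed with 92 and 116 reads (153 and 193 reads per kb). The fourth, at chr6:89739001-89742000, is described below for its ratio. The fifth, at chr4:114788401-114789600, held 220 and 176 reads (183 and 147 reads per kb). The pairs on chromosomes 9 and 19 thus held nearly as many or more reads at day 5, and each interval of their unscaled ratio included 1. The pairs on chromosome 9 and at chr19:58398001-58399200 were also the densest at day 0, followed by the chromosome 4 pair. At day 5 the chromosome 9 pair was followed by the chromosome 6 pair and by one on chromosome 3. The latter spanned 136992001 to 136993800 at day 0 (153 reads per kb) and 136992601 to 136993800 at day 5 (220 reads per kb), 1 window shorter at its start.

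A few pairs with fixed borders differed clearly in density between the libraries. They were picked for that difference from 181, so the values are a description. The highest ratio was at chr6:89739001-89742000, a 3.0 kb island with 321 reads at day 0 and 697 at day 5. Its density went from 107 reads per kb (95.6 to 119) to 232 (215 to 250), a relative ratio of 1.94. At chr4:71628601-71632800, 299 and 638 reads gave 71.2 and 152 reads per kb, a relative ratio of 1.91. At chr3:109073401-109078200, 386 and 728 reads gave 80.4 and 152 reads per kb, a relative ratio of 1.69. The next were at chr2:172465801-172468200 and at chr11:48710401-48713400. These had relative ratios of 1.4 and 1.36. In each of these 5 the counting interval of the unscaled ratio lay above 1.12.

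The lowest ratios were less extreme. The pair at chr4:114788401-114789600 had an unscaled ratio of 0.80 (0.652 to 0.980), which is 0.715 relative to all pairs. The other 4 lay at chr8:126124201-126124800, chr17:29073001-29074200, chr3:21591001-21595800 and chr12:105253201-105256800. Their relative ratios were 0.758, 0.761, 0.785 and 0.804. The unscaled interval of each of these 4 included 1. Their lower density at day 5 was therefore within counting error before scaling, and for the same 4 the relative log2 ratio was no longer past 0.3 without scaling. Set against the 1.12 used for the highest ratios, the chromosome 8 interval included it, with an upper end of 1.14. The intervals on chromosomes 4, 17, 3 and 12 lay wholly below 1.12, with upper ends of 0.980, 1.08, 1.01 and 1.07.

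The third measurement was the distance to the nearest wider island (5000 bp or more) of the same list, from edge to edge. The smallest gap between neighbours within either list was 1800 bp, which sets the smallest distance. At day 0 the median pair lay 10.2 kb from a wider island (9.0 to 11.4 kb), with quartiles of 3.0 and 36.0 kb. At day 5 the median was 9.0 kb (7.8 to 10.8 kb), with quartiles of 2.4 and 28.8 kb. The smallest distance of 1.8 kb was found in 141 pairs at day 0 (13.1%) and in 183 at day 5 (17.0%). A wider island lay within 10 kb of 534 pairs at day 0 (49.6%) and of 560 at day 5 (52.0%). It did so at both days in 407 pairs (37.8%) and at neither day in 389 (36.2%). The distance was smaller at day 5 in 543 pairs, larger in 413 and the same in 120. Narrow pairs were thus spread over a wide range of settings, from the edge of a domain to far from any.

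Kept islands lay somewhat nearer to wider islands than narrow islands that overlapped nothing at the other day, but not under every setting. The unmatched islands had medians of 13.2 kb at day 0 (12.6 to 14.4 kb) and 11.4 kb at day 5 (10.8 to 12.6 kb). That puts the kept median at 0.773 and 0.789 times the unmatched one. By chromosome, kept islands had the smaller median on 11 of 18 at day 0, with 4 equal and 3 larger, and on 14 of 18 at day 5, with 4 larger. At equal width the kept median was smaller for 6 of 8 widths at day 0 and 4 of 8 at day 5. When islands within 5 kb were first merged, the ratio turned to 1.18 (0.90 to 1.41) and 1.05 (0.872 to 1.38). Both of these ranges hold 1. The direction of the medians therefore depended on how neighbouring islands were joined, and after merging the distances were not distinguishable. Within 50 kb on each side, wider islands covered a mean of 22.7% of the flanks of kept islands and 20.5% of those of unmatched islands at day 0, and 25.2% and 21.5% at day 5.

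**Figure D5:**
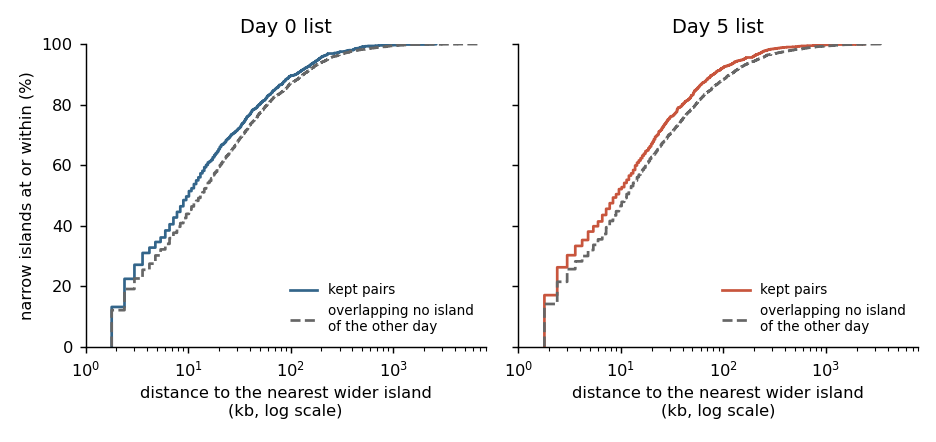
Cumulative percent of narrow islands (y axis) by distance in kb to the nearest wider island of the same list (x axis, log scale), for the day 0 list (left) and the day 5 list (right), with kept pairs as solid lines and narrow islands that overlapped nothing at the other day as dashed lines. Both lines start at 1.8 kb, and the solid line reaches 50% near 10.2 kb at day 0 and 9.0 kb at day 5, to the left of the dashed line.

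A larger difference was seen in whether the nearest wider island was itself found at the other day. At day 0 the nearest wider island overlapped a myotube island for 830 of 1076 kept islands (77.1%, 74.5 to 79.6%) and for 1872 of 3163 unmatched ones (59.2%, 57.4 to 60.9%). At day 5 it overlapped a myoblast island for 816 kept islands (75.8%, 73.2 to 78.4%) and for 1919 of 3301 unmatched ones (58.1%, 56.4 to 59.8%). Kept islands had the higher share on 17 of 18 chromosomes at day 0 and on all 18 at day 5. Over all wider islands the shares were 77.2% and 74.0%, which lie inside the intervals of the kept islands and above those of the unmatched ones. The median width of these nearest islands was 9.0 kb for kept and 8.4 kb for unmatched islands at day 0, and 9.0 kb for both at day 5. The contrast held within 10 kb (81.1% against 60.6% at day 0) and beyond it (73.2% against 58.1%). With wider taken to mean over 50 kb the difference was 0.0323 percentage points at day 0 and 0.0888 at day 5, and both intervals held 0. Of islands that wide on these chromosomes, 355 of 356 in the myoblast list and 397 of 399 in the myotube list overlapped an island of the other day. Over the other settings the difference of 18.0 points at day 0 and 17.7 at day 5 ran from 6.24 to 20.6 points. The lowest, at day 5 with a width limit of 3000 bp, had an interval of -2.84 to 14.7 points for the error of the kept share alone, so with that limit the contrast was not distinguishable from 0 at day 5. Neighbouring islands share their region, so single islands are not replicates and no test was made. The nearest wider islands of the 2 days overlapped each other for 482 pairs (44.8%).

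Pairs near to and far from wider islands were not distinguishable in their borders. Both borders were identical in 78 of the 407 pairs within 10 kb at both days (19.2%, 15.5 to 23.3%), and in 6 of the 43 pairs over 100 kb away at both days (14.0%, 5.30 to 27.9%), and these intervals overlap. Median densities were 81.1 and 91.3 reads per kb in the near pairs, and 78.1 and 89.0 in the far ones, for day 0 and day 5. These medians were not taken at equal width, as the median width at day 0 was 3600 bp in the near and 3000 bp in the far pairs. Across pairs, Spearman's rho between distance and density was -0.05 at day 0 and -0.10 at day 5.

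The 2 pairs farthest from any wider island were on chromosome 7, which has few islands. One spanned 17048401 to 17052600 at day 0 and 17047801 to 17052600 at day 5, and its nearest wider island lay 2.63 Mb away at day 0 and 2.39 Mb at day 5. It held 323 and 387 reads (76.9 and 80.6 reads per kb). The next, from 17514601 to 17517600 at day 0 and from 17514001 to 17517600 at day 5, lay 2.17 and 1.93 Mb away. Then came a pair at chr13:69621601-69625200 at day 0, widened by 1 window on each side at day 5 and 1.15 Mb away at both days. A pair at chr18:7233601-7237200 at day 0 lay 0.569 and 0.784 Mb away. The fifth, at chr3:138816001-138820800 at day 0, lay 0.412 Mb away at both days and was shifted by 1 window as a whole. None of these 5 had identical borders, and all had densities between 72.8 and 89.4 reads per kb, near the medians of all pairs. Isolation in the map thus did not come with extreme read density in these 5.

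Pairs were found on all 18 chromosomes, from 34 on chromosome 16 to 87 on chromosome 5. Chromosome 7 kept the highest share of its narrow islands, 66 of 290 at day 0 (22.8%, 18.1 to 28.0%) and 66 of 279 at day 5 (23.7%, 18.8 to 29.1%). It was also the least covered of these chromosomes, with islands over 2.90% of its span at day 0, and the part of coverage in the kept share was not tested. Chromosome 5 was next at day 0, at 18.1%. The lowest shares at day 0 were 10.3% on chromosome 8 and 10.5% on chromosome 10, and at day 5 11.6% on chromosome 10. Chromosome 10 was the most covered, at 21.8%. The median ratio of read density lay between 1.1 and 1.17 on every chromosome, so the offset between libraries was general. Identical borders ranged from 7.14% of the 56 pairs on chromosome 9 to 28.6% of the 70 pairs on chromosome 4.

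Most windows of 1 Mb with a pair held a single one, although only 42.3% of the pairs were alone in their window. The pairs fell into 717 windows of 1 Mb, of which 455 held a single pair, 194 held 2 and 68 held 3 or more. The highest number, 6 pairs, was reached in 3 windows. These were 182 to 183 Mb on chromosome 1, 108 to 109 Mb on chromosome 7 and 43 to 44 Mb on chromosome 11. Each of these windows had 1 pair with identical borders. The median distances to a wider island there were 14.4, 6.9 and 13.2 kb at day 0 and 27.0, 9.0 and 11.7 kb at day 5. In the chromosome 7 window the pairs had a median of 85.5 reads per kb at day 0 and 79.7 at day 5, against the general offset, while the other 2 windows went from 85.2 to 86.2 and from 75.4 to 84.2. With 6 pairs each, these medians are only descriptions of the pairs in them.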

How the data were processed

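MacroH2A ChIP-seq of C2C12 cells was represented by 1 island list per library, with the whole-number count of ChIP reads in each island as the authors deposited it. These are raw counts with no scaling. Per the submitters' processing notes the genome build was mm9 (NCBIM37). The tools listed there, with no role given, are SICER 1.1, MACS 1.4.2, CASAVA 1.4 and Bowtie2 2.2.6. The list names carry the SICER settings, a 600 bp window, gaps up to 1200 bp and FDR 0.01. Use of the inputs as control and handling of duplicate reads are not given in the sources used here. Rows may be missing from a list.

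Overlap means at least 1 bp. Width is end minus start plus 1, positions are printed counting from 1, and unmatched islands are narrow islands that overlap none of the other list. Density is the read count per kb of an island's own width. Intervals are exact binomial for shares, exact Poisson for densities and exact conditional binomial for ratios. A median's interval takes the order statistics that the binomial distribution gives. The members and comparisons were chosen with earlier results of these data known. Regions were named by rule: 5 pairs each of highest mean density, highest ratio and lowest ratio among identical borders, the 3 densest per day, the 5 farthest from wider islands and the 3 windows of 1 Mb with most pairs. Gene names and sequences are not given because the tables at hand were for another build, GRCm38. Alternatives changed width limit, overlap, read minimum, merging, chromosomes, a density floor, scaling and what counts as wider. The pairing code was tested on simulated data and found 239 of 239 planted pairs with their shifts. The software was SciPy 1.17.1, pandas 2.3.3, NumPy 2.4.6 and matplotlib 3.10.9 under Python 3.11.15.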

Additional observations from a re-analysis of the deposited data

How the results depend on the processing

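The 16 values for the main comparisons were recomputed under 13 alternatives, which gave 133 values. Of these, 62 stayed within the interval of the reported value (within 1.5 times for the number of pairs), 69 did not and 2 turned direction. A width limit changes the members by construction. At 3000 bp there were 125 pairs, 7.25% and 8.70% of narrow islands at day 0 and day 5. Of these pairs 35.2% had identical borders, 83.2% had both within 1 window and 25.6% passed the fold. Their medians were 96.1 and 112.5 reads per kb and 8.4 and 7.2 kb to a wider island, and the neighbour difference was 20.6 and 6.24 points, the latter with an interval that holds 0. At 10000 bp there were 5251 pairs (28.2% and 29.9% kept), 6.47% with identical borders, 23.9% within 1 window and 17.7% past the fold. Their medians were 73.1 and 81.0 reads per kb and 34.2 and 27.6 kb, with neighbour differences of 9.69 and 11.2 points. With 50% reciprocal overlap, 11.1% and 12.7% were kept, 20.4% had identical borders, 62.2% were within 1 window and 16.0% passed the fold. Leaving out the 25% of islands with fewest reads removes most narrow islands. The 61 pairs left (4.56% and 7.87%) had identical borders in 39.3%, both within 1 window in 82.0% and a ratio past the fold in 11.5%. Their medians were 85.4 and 99.8 reads per kb and 4.8 and 3.6 kb, and the kept distance was 0.462 times the unmatched one at day 5. Merging islands within 5 kb gave 408 pairs (10.6% and 11.9%), 47.8% within 1 window, 88.8 reads per kb at day 5, and distances of 33.3 and 27.0 kb. The distance of kept over unmatched islands turned to 1.18 and 1.05, both with ranges that hold 1. The cause was not tested, and the neighbour difference was 12.2 and 8.01 points. A floor of 70 reads per kb, raised at day 5 by the median ratio, kept 12.6% at day 0, with 55.7% within 1 window. Its medians were 82.0 and 93.1 reads per kb and 25.8 and 21.0 kb, with neighbour differences of 11.0 and 9.19 points. The share past the fold was 31.7% with no scaling, 26.0% with scaling by all island reads and 10.5% for identical borders. With wider taken as 10 kb or more, distances were 38.4 and 30.9 kb and neighbour differences 8.78 and 11.5 points. With over 50 kb they were 2225 and 2256 kb, and 0.0323 and 0.0888 points. From the midpoint, the day 0 distance was 11.7 kb. Adding chromosomes 15 and X moved none of the 16. Of 20 values for the 10 named ratios none turned direction and 4 crossed the fold. No paired analysis was possible because each group has 1 library. Variation between cultures was therefore not measured, and missing rows cannot be told from islands that were not called.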

Other observations

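Staggered pairs lay more often towards lower coordinates at day 5 than towards higher ones. Of 325 staggered narrow pairs, 188 were displaced towards lower and 137 towards higher coordinates (57.8% lower, 52.3 to 63.3%, exact binomial interval). The mean shift of the midpoint over all narrow pairs was -53.5 bp. More pairs were displaced towards lower coordinates on 12 chromosomes and towards higher ones on 5, with 1 equal. In wider pairs the counts were 1174 and 1096 (51.7%, 49.6 to 53.8%), with a mean midpoint shift of -10.6 bp. This was noticed after the values were seen.

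The same rule gave 38 pairs on chromosome 15 and 24 on X. On chromosome 15 these were 12.5% of 305 narrow islands at day 0 and 12.8% of 296 at day 5, close to the other autosomes. On X they were 6.59% of 364 narrow islands at day 0 (4.27 to 9.65%) and 12.1% of 199 at day 5 (7.88 to 17.4%). The day 0 share on X was below that of each of the 18 autosomes described, the lowest of which was 10.3%. Its interval overlapped those of several autosomes, among them chromosome 8 (7.65 to 13.6%) and chromosome 10 (8.07 to 13.3%). The median density ratio, day 5 over day 0, was 1.20 (1.1 to 1.26) in the chromosome 15 pairs and 1.05 (0.969 to 1.17) in the X pairs, so these intervals overlapped.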
